A study of Homo sapiens with 36 samples.

Results

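The mucins and trefoil factors considered here were 9 genes, MUC1, MUC2, MUC5AC, MUC12, MUC13, MUC20, TFF1, TFF2 and TFF3, out of 60675 genes in the count table. The members were chosen by gene symbol, each of which matched a single Ensembl identifier, and all 9 were followed through all 36 libraries. These libraries came from 2 established human cell lines, SW1783 from an astrocytoma and HT29 from a colorectal adenocarcinoma, with 12 groups of 3 replicates in all. In batch A, cells of each line received vehicle or 10 µM wortmannin, an inhibitor of PI3K that served as the positive control. In batch B, cells received vehicle or ACD, an extract made with hot water from the monkshood Aconitum carmichaeli Debeaux, at 500 µg/mL (ACD high), 100 µg/mL (ACD medium) or 20 µg/mL (ACD low). Exposure lasted 24 h, and the labels give the vehicle as 0.1% DMSO. Each cell line stands for its tissue only as a tumour-derived line, and the labels do not say whether replicates were separate cultures, so that p-values measure the spread between these libraries, which may be technical.

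Mucins are large glycoproteins whose serine- and threonine-rich repeats carry dense O-linked sugar chains. MUC2 is the gel-forming mucin of intestinal goblet cells and MUC5AC that of the gastric and airway surface, whereas MUC1, MUC12, MUC13 and MUC20 sit in the apical membrane of epithelial cells. Trefoil factors are small secreted peptides that are stored and released with mucus and help an injured epithelium to close. TFF1 and TFF2 are mainly gastric products, and TFF3 is the trefoil peptide of intestinal goblet cells.

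HT29 expressed the epithelial markers of its label, with EPCAM at 524 ± 39.8 CPM (counts-per-million, a gene's counts scaled to the library's total; SD, n = 18 libraries) against 0.05 ± 0.06 CPM in SW1783. Of the 7 astrocyte markers, 2 exceeded 1 CPM in every SW1783 group, led by GJA1, and GFAP, the defining astrocyte filament, averaged 0.10 ± 0.07 CPM there (n = 18). SW1783 also carried 17351 to 17720 CPM summed over 5 mesenchymal markers in vehicle B. The HT29 libraries ACD high replicate 2 and, less strongly, vehicle B replicate 1 stood apart from the other HT29 libraries of batch B. Both are described beside the results that they touch. Vehicle libraries of batches A and B with the same number differed less (chi-square per degree of freedom 1.46 to 1.64) than those with other numbers (2.04 to 17.68), so the batches' vehicles may not be separate cultures, and no main comparison used both.

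Of the 9 members, 4 had a promoter in the RefSeq table of GRCh38.p14, namely MUC1, MUC2, MUC12 and MUC13. The 250 bases before the start of MUC1 and MUC13 are shown because MUC1 was the member that fell in SW1783 and MUC13 the member with the smallest adjusted p-value in HT29. The MUC1 window spans chr1:155192916-155193165 on the minus strand and the MUC13 window chr3:124934752-124935001 on the minus strand, and in capitals are matches on either strand to the GC box GGGCGG and the TATA box TATAAA.
MUC1: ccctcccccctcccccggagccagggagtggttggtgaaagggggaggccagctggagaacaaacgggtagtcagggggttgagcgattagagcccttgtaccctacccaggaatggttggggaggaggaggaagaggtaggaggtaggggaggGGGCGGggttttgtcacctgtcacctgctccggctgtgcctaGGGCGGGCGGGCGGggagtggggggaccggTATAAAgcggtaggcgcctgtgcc
MUC13: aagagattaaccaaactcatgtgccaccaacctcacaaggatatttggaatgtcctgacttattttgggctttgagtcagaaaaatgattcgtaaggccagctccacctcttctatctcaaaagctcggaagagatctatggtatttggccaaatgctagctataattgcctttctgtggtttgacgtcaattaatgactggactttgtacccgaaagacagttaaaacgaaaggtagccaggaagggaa

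The MUC1 window held 4 matches to GGGCGG, of which the 3 nearest the start overlapped each other, and 1 match to TATAAA beginning 24 bases before the start. MUC1 had 2 starts in the RefSeq table, and these matches are those of the 1 shown. The MUC13 window held neither motif. MUC13 spans 124905442 to 124953819 on chromosome 3 in GENCODE v44, so that it has annotated starts other than the RefSeq start shown. Of 35116 promoters in the table, 42.6% held GGGCGG and 10.7% held TATAAA in the same 250 bases. Searches of both windows for the E-box CACGTG, the aryl hydrocarbon receptor core GCGTG and the CDX core TTTAT gave 1 match, TTTAT in MUC1, which overlapped the TATA match; these motifs were held by 6.3%, 32.2% and 32.7% of promoters. G and C made up 66.0% of the MUC1 window and 41.6% of the MUC13 window.

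In HT29, all 9 members had more than 3 counts in each of 18 libraries. Levels between genes were compared as CPM per kb of the canonical GENCODE transcript. On this scale MUC2 is uncertain, since its canonical model spans 4209 bases against 17448 for MUC5AC, the gel-forming mucin nearest to it in kind. In the vehicle B libraries MUC13 was highest at 47.2 ± 1.60 CPM per kb (SD, n = 3). MUC20 followed at 23.5 ± 0.788 CPM per kb, apart from MUC13 beyond their spread. TFF3 at 10.6 ± 1.61, MUC2 at 8.04 ± 1.28 and MUC5AC at 6.84 ± 1.17 CPM per kb formed a middle range in which the SDs of neighbours overlapped. TFF2 at 1.48 ± 0.686 and TFF1 at 1.46 ± 0.378 CPM per kb did not differ beyond their spread. MUC12 at 0.399 ± 0.075 and MUC1 at 0.372 ± 0.130 CPM per kb were lowest and also within their spread.

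SW1783 had 1 member well above the floor, MUC1, at 3.83 ± 0.57 CPM in vehicle B (n = 3) against 0.67 ± 0.23 CPM in HT29 vehicle B; the difference between the lines was not tested. MUC12 exceeded 3 counts in 14 of 18 SW1783 libraries and averaged 0.23 ± 0.11 CPM, while MUC20 did so in 5 and MUC13 in 2 libraries. MUC2, MUC5AC and TFF2 never exceeded 3 counts in SW1783. TFF1 and TFF3 had 0 counts in all 18 SW1783 libraries, which allows up to 0.113 to 0.159 CPM per library. This limit covers counting error only.

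**Figure D1:**
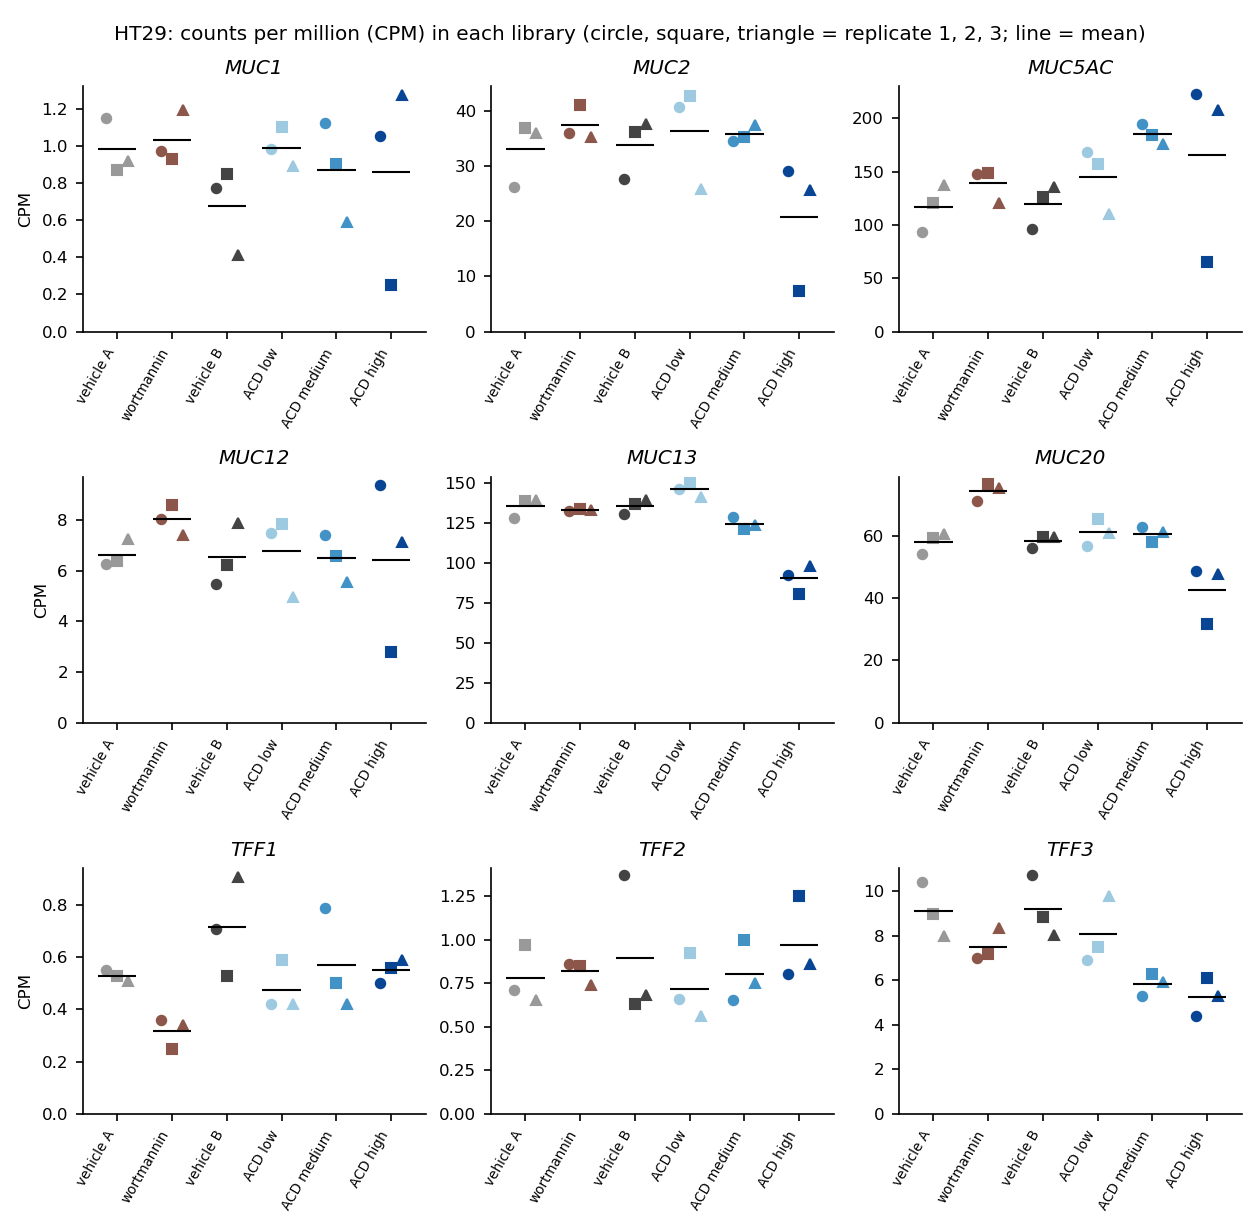
CPM (counts-per-million) of the 9 members in the 18 HT29 libraries, with a panel per gene, a symbol per replicate (circle 1, square 2, triangle 3) and a line at the mean of each group. TFF3 is lower in ACD medium and ACD high than in vehicle B with no overlap, MUC13 is lowest in ACD high, and ACD high replicate 2 (dark blue square) lies far below its partners in MUC1, MUC2, MUC5AC and MUC12. In that library MUC1 rested on 4 counts.

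The first comparison asked whether ACD changed these genes in the intestinal line. At the high dose 1 of 9 members passed the test (DESeq2 Wald test, adjusted p under 0.05 and more than 1.5-fold), the goblet cell peptide TFF3, which fell. Across all 15300 genes tested, 3.1% were called and 1.75% were called lower. TFF3 lies on chromosome 21 at 42311667 to 42315409 (GRCh38, minus strand), beside TFF2 and TFF1, with no overlapping gene annotated. TFF3 had 10.7, 8.83 and 8.02 CPM in the vehicle B libraries, 6.92, 7.49 and 9.79 CPM in ACD low, 5.30, 6.29 and 5.91 CPM in ACD medium and 4.41, 6.08 and 5.31 CPM in ACD high. All medium and high libraries lay below all vehicle libraries, whereas the low dose overlapped vehicle. The log2 fold change of TFF3 was -0.66 (SE 0.19, adjusted p = 0.0093 by DESeq2) at the high dose and -0.64 (SE 0.19, adjusted p = 0.034 by DESeq2) at the medium dose. In linear terms TFF3 stood at 0.631 and 0.640 of vehicle. Between ACD high and ACD medium TFF3 differed by -0.02 on the log2 scale (95% interval -0.40 to 0.36). The TFF3 calls depended on single libraries and on the fit: the high-dose adjusted p reached 0.103 without vehicle B replicate 1, 0.088 without ACD high replicate 1 and 0.0609 without ACD high replicate 3, and the medium-dose call was lost without vehicle B replicate 1 or 2 or any medium replicate. With all libraries kept, the high-dose call was lost when the fit held only the groups compared (adjusted p = 0.0797 by DESeq2), and the medium-dose call was lost with the replicate block (-0.65, adjusted p = 0.113 by DESeq2) and with a length trend removed (-0.49). Since these are bulk samples, fewer cells that express a gene and less RNA per cell cannot be told apart.

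At the medium dose 1 of 9 members passed, again TFF3, where 0.793% of 17026 genes were called and 0.382% were called lower. At the low dose none of the 9 was called by DESeq2 or by edgeR and none had an unadjusted p under 0.05, with 0.282% of genes called.

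MUC13, a membrane mucin of the intestinal and gastric epithelium, had 131, 137 and 139 CPM in vehicle B and 92.9, 80.8 and 97.97 CPM in ACD high, with no overlap. ACD medium at 129, 122 and 124 CPM lay just below vehicle, and ACD low at 147, 151 and 141 CPM lay above it. At the high dose the log2 fold change was -0.44 (SE 0.06, adjusted p = 2.15e-10 by DESeq2), below the 1.5-fold threshold, so that MUC13 was not called. Between ACD high and ACD medium it was -0.32 (SE 0.06, adjusted p = 3.78e-05 by DESeq2), again below the threshold. Mitochondrially encoded genes took 14.0% to 16.6% of the counts in HT29 ACD high and 8.74% to 10.1% in vehicle B. Without these genes the high-dose count of members called was unchanged at 1, which is TFF3 and cannot speak for MUC13. The high-dose value of MUC13 was -0.47 to -0.43 over 9 fits that kept all libraries of the groups compared, among them the fit without these genes.

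MUC5AC, the gel-forming mucin of the gastric and airway surface, had 96.4, 126 and 136 CPM in vehicle B, 169, 157 and 110 CPM in ACD low, 195, 185 and 176 CPM in ACD medium and 222, 65.4 and 208 CPM in ACD high. The medium libraries all lay above vehicle, and so did ACD high replicates 1 and 3, whereas ACD high replicate 2 lay below every other HT29 library. The log2 fold change was 0.60 (SE 0.39, adjusted p = 0.425 by DESeq2) at the high dose and 0.64 (SE 0.39, adjusted p = 0.614 by DESeq2) at the medium dose, neither of which passed. Without ACD high replicate 2 the high-dose value was 0.97 with an adjusted p of 2.86e-05, and with only the libraries of ACD medium and vehicle B in the fit the medium-dose adjusted p was 2.66e-08 at the same value of 0.64. Over all alternatives the DESeq2 and edgeR adjusted p of MUC5AC ranged from 2.86e-05 to 0.693 at the high dose and from 2.66e-08 to 1 at the medium dose.

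MUC2, the intestinal gel-forming mucin, had 27.7, 36.2 and 37.6 CPM in vehicle B and 29.1, 7.34 and 25.7 CPM in ACD high, where replicate 2 was lowest of all HT29 libraries. Its log2 fold change of -0.57 (SE 0.35, adjusted p = 0.390 by DESeq2) did not pass, and without that replicate it was -0.19. At ACD medium (34.5, 35.3 and 37.3 CPM) and ACD low (40.7, 42.7 and 25.7 CPM) MUC2 overlapped vehicle. MUC2 and MUC5AC, which lie near each other on chromosome 11 at 1074875 to 1110511 and at 1157953 to 1201138 (GRCh38, plus strand), thus had fold changes of opposite sign at the high dose, neither of which passed.

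In ACD high replicate 2 the CPM of the 9 members relative to the mean of replicates 1 and 3 was 0.304 for MUC5AC, 0.337 for MUC12, 0.268 for MUC2 and 0.216 for MUC1. The ratio was 0.658 for MUC20 and 0.847 for MUC13, and for the short TFF1, TFF2 and TFF3 transcripts it was 1.03, 1.52 and 1.25. Over all genes the median of this ratio fell from 1.45 for canonical transcripts under 1000 bases to 0.608 for those of 12000 bases or more. MUC1, at 1811 bases and 0.25 CPM in that library, departed furthest from genes of its length. It rested on 4 counts there, close to the floor of 3, so its ratio is uncertain. Per library, the median log2 ratio to mean vehicle B was taken for transcripts of 8000 bases or more and under 2000 bases. The first minus the second was -0.71 in ACD high replicate 2 and -0.27 in vehicle B replicate 1. It was 0.10 and 0.16 in vehicle B replicates 2 and 3 and 0.05 to 0.26 in ACD low and medium. Vehicle B replicate 1 had the highest TFF3 and the lowest MUC5AC and MUC2 of its group. Neither TFF3 call was kept without it. The part of this length dependence in the results was not tested beyond a fit that removed a smooth length trend from each library, chosen after seeing the data, in which MUC5AC passed at the high dose (0.61, adjusted p = 0.0476 by DESeq2) and TFF3 remained called there at -0.60.

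**Figure D2:**
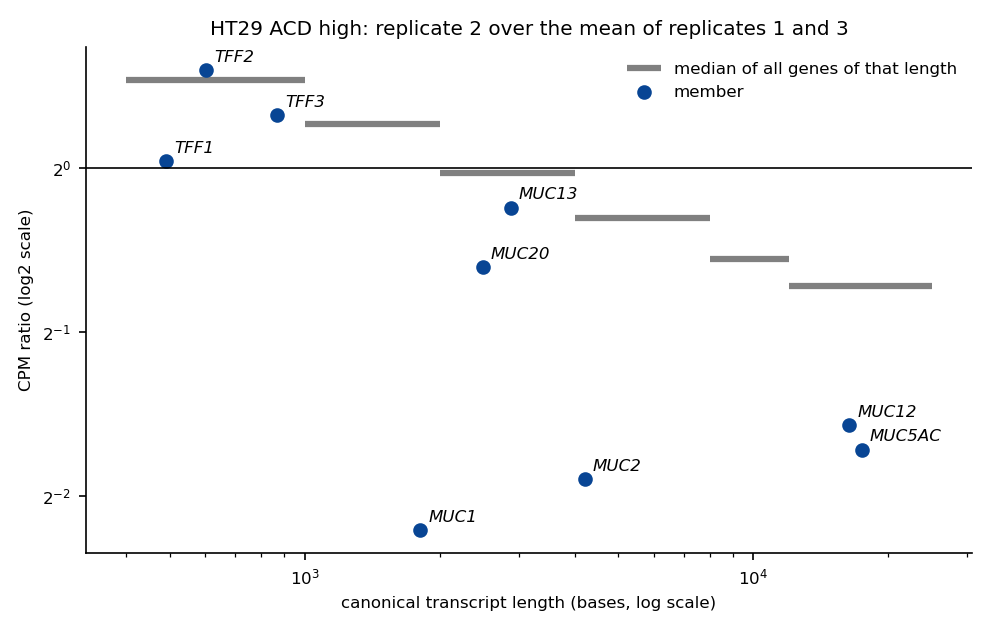
Ratio of CPM in HT29 ACD high replicate 2 to the mean of replicates 1 and 3 (log2 scale) against canonical transcript length (log scale), for the 9 members (points) and as the median of all genes in 6 length classes (grey bars, the outermost of which are open-ended). The bars fall from 1.45 to 0.608, and MUC1, MUC2, MUC5AC and MUC12 lie furthest below the bar of their length. MUC1 rested on 4 counts in replicate 2.

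Among the other members, MUC20 had 56.2, 59.5 and 59.7 CPM in vehicle B and 48.7, 31.7 and 47.7 CPM in ACD high, all lower than vehicle. Its log2 fold change of -0.31 (SE 0.13, adjusted p = 0.115 by DESeq2) did not pass. MUC20 lies on chromosome 3 at 195720884 to 195741123 and overlaps MUC20-OT1 on the same strand, its reads had fractional counts in 24 libraries, and the copy MUC20P1 averaged 20.0 CPM in HT29, so that its level is uncertain. MUC12, which overlaps MUC12-AS1 on the opposite strand, had a log2 fold change of 0.12 (SE 0.33) at the high dose. MUC1, TFF1 and TFF2, each near or under 1 CPM in HT29, had values of 0.53 (SE 0.48), -0.21 (SE 0.43) and 0.27 (SE 0.41), and these errors do not allow changes of 1.5-fold to be seen. Between ACD high and ACD medium in HT29 no member was called by DESeq2 or edgeR, and 2 members, MUC13 and MUC20, had an unadjusted p under 0.05; of all genes, 0.7% were called there.

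**Figure D3:**
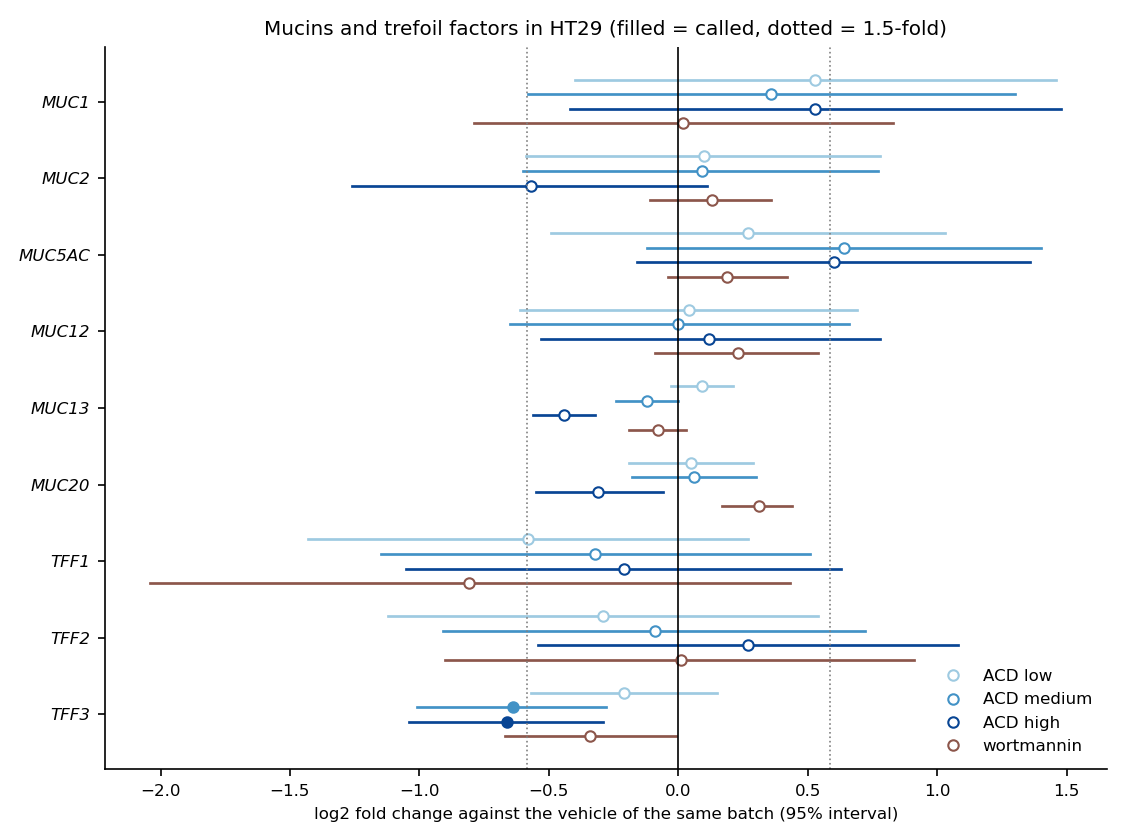
Log2 fold changes of the 9 members in HT29 against the vehicle of the same batch, with 95% intervals, for 3 ACD doses and wortmannin; filled points were called and dotted lines mark 1.5-fold. TFF3 at ACD medium (-0.64) and ACD high (-0.66) are the filled points, and MUC13 at ACD high (-0.44) has a narrow interval short of the line.

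Wortmannin addressed the same question for a PI3K inhibitor. In HT29 it moved no member past the thresholds by DESeq2 or edgeR, 2 members had an unadjusted p under 0.05, and 2.74% of genes were called. MUC20, a membrane mucin, had 54.0, 59.3 and 60.5 CPM in vehicle A and 71.3, 76.7 and 75.5 CPM with wortmannin, which did not overlap. Its log2 fold change of 0.31 (SE 0.07, adjusted p = 0.000226 by DESeq2) was below 1.5-fold, and MUC20-OT1 overlaps it as given above. TFF3 had 10.4, 8.97 and 7.99 CPM in vehicle A and 7.02, 7.20 and 8.33 CPM with wortmannin, which overlapped, with a log2 fold change of -0.34 (SE 0.17, adjusted p = 0.153 by DESeq2). TFF1 had 0.55, 0.53 and 0.51 CPM in vehicle A and 0.36, 0.25 and 0.34 CPM with wortmannin, all lower, but rested on 37 and 19 counts in all and received no adjusted p. MUC5AC (0.19, SE 0.12) and MUC2 (0.13, SE 0.12) did not pass. The difference between long and short transcripts described above was -0.27 in vehicle A replicate 1, 0.11 and 0.16 in replicates 2 and 3, and 0.23 to 0.27 with wortmannin. Over 8 fits that kept all libraries of the groups compared, TFF3 was -0.34 to -0.19 and MUC5AC 0.06 to 0.20. The part of this length dependence in the wortmannin values was not tested further.

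In SW1783 the question could be asked of MUC1. MUC1, a membrane mucin whose extracellular part can be shed, had 3.69, 3.34 and 4.46 CPM in vehicle B, 3.17, 2.61 and 2.53 CPM in ACD low, 2.44, 2.42 and 2.51 CPM in ACD medium and 1.27, 1.94 and 0.81 CPM in ACD high. Every library of each dose lay below every vehicle library. The high dose was called with a log2 fold change of -1.40 (SE 0.28, adjusted p = 2.64e-06 by DESeq2), which is 0.380 of vehicle. It was 1 of 9 members called there, where 17.7% of 20050 genes were called and 9.28% were called lower, and 4 members received an adjusted p. The medium dose gave -0.53 (SE 0.26, adjusted p = 0.115 by DESeq2) and the low dose -0.43 (SE 0.26, no adjusted p because of the low counts), with 3.81% and 0.103% of genes called. No member was called by DESeq2 or edgeR at either dose, and MUC1 at the medium dose was the only member with an unadjusted p under 0.05. MUC1 at the high dose rested on 90 counts in all, against 237 in vehicle B.

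MUC1 lies on chromosome 1 at 155185824 to 155192916 (GRCh38, minus strand) and overlaps the identifier ENSG00000273088 on the same strand, so reads of both could be split between them. The counts of MUC1 were fractional in 0 libraries, against 24 for MUC20, and the assignment of its reads was not tested. Beside the MUC1 result, the summed level of 5 epithelial markers was 242 to 251 CPM in SW1783 vehicle B and 82.3 to 86.1 CPM in ACD high, made up largely of KRT18 and KRT8, while EPCAM and CDH1 were near 0 in this line. The summed level of 5 mesenchymal markers was 17351 to 17720 CPM in vehicle B and 12672 to 12848 CPM in ACD high. The summed level of 7 astrocyte markers was 271 to 285 CPM in vehicle B and 175 to 178 CPM in ACD high, with SLC1A3, a glutamate transporter, at -2.45 (SE 0.11). Mitochondrially encoded genes took 5.03% to 5.29% of the counts in vehicle B and 8.99% to 9.29% in ACD high. The part of these changes in the MUC1 result was not tested. With wortmannin MUC1 had 3.79, 3.59 and 3.97 CPM against 4.39, 3.50 and 4.33 CPM in vehicle A, which overlapped, with a log2 fold change of -0.12 (SE 0.20, adjusted p = 0.704 by DESeq2). No member was called in SW1783 with wortmannin by DESeq2 or edgeR and none had an unadjusted p under 0.05, while 2.71% of genes were called.

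**Figure D4:**
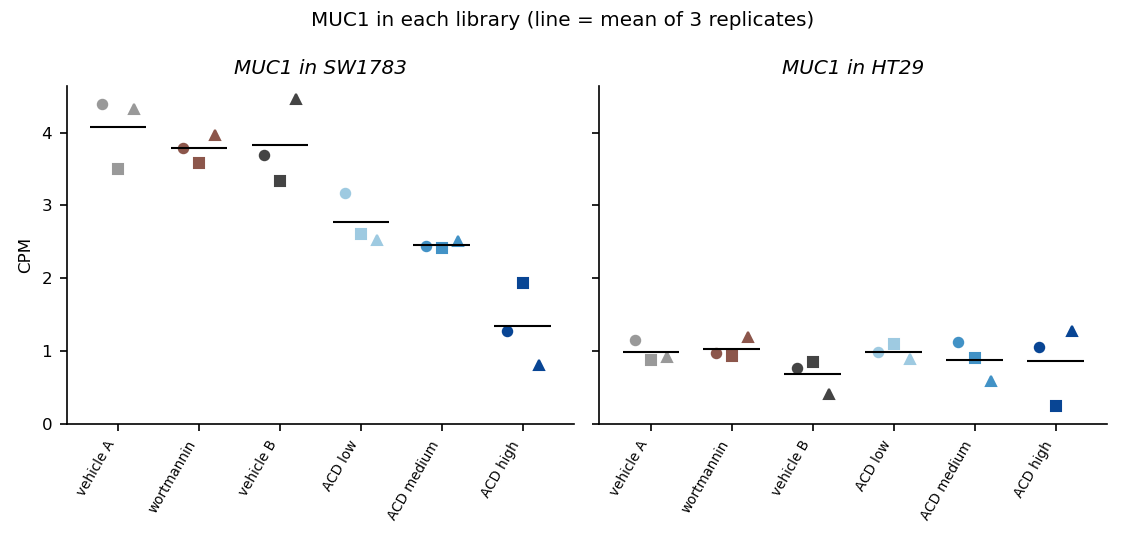
MUC1 in CPM in each library of SW1783 (left) and HT29 (right), with the mean of each group as a line. In SW1783 all ACD libraries lie below the vehicle B libraries, down to 0.81 CPM in ACD high, whereas in HT29 ACD medium and ACD high overlap vehicle B and the ACD low libraries lie above it.

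The difference between the lines was tested as an interaction. MUC1 was called, with a log2 fold change at ACD high that was 2.00 higher in HT29 than in SW1783 (SE 0.50, adjusted p = 0.000486 by DESeq2), and it was 1 of 9 members called where 15.2% of 17713 genes were. In HT29 MUC1 had 0.77, 0.85 and 0.41 CPM in vehicle B and 1.05, 0.25 and 1.27 CPM in ACD high, which overlapped. When 1 library was left out the difference was 1.64 to 2.40. For wortmannin no member was called in the interaction by DESeq2 or edgeR and none had an unadjusted p under 0.05, with 3.42% of genes called. For the other 8 members, low or absent counts in SW1783 left the difference with SEs of 0.76 or more at ACD high.

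The genes around the members were followed in 6 lists chosen with earlier results of these data known. In HT29 at ACD high the goblet cell regulators had 3 of 12 tested genes called, all lower, where 3.1% of all genes tested were called and 1.75% were called lower. The list's median log2 fold change was -0.14 beside 0.01 over all genes tested. ATOH1, the transcription factor that commits intestinal progenitors to the secretory lineage, fell by 1.28 (SE 0.23, adjusted p = 1.52e-06 by DESeq2). CREB3L1, a membrane-bound transcription factor of secretory cells, fell by 0.86 (SE 0.17), and FOXA2, a forkhead factor of endodermal epithelia, fell by 0.59 (SE 0.19). Without ACD high replicate 2 the call of FOXA2 was lost (-0.42, adjusted p = 0.0502 by DESeq2) and those of ATOH1 and CREB3L1 were kept. At ACD medium ATOH1 was the 1 called, at -0.72 (SE 0.21, adjusted p = 0.0399 by DESeq2). SPDEF, which drives goblet cell maturation, was among the 9 of 12 not called at ACD high.

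Of the goblet cell products and mucin folding genes, 2 of 8 tested fell at ACD high in HT29, against 1.75% of all genes called lower there, with a list median of -0.50 beside 0.01 over all genes tested. SYTL2, a granule-docking protein, fell by 0.97 (SE 0.11), and FCGBP, a mucus protein that binds to MUC2, fell by 0.74 (SE 0.22). Without ACD high replicate 2 FCGBP (-0.48, adjusted p = 0.000643 by DESeq2) was short of 1.5-fold and so not called. In that fit 4 genes of the list were called lower, AGR2, AGR3, SPINK1 and SYTL2, named after their values were seen. AGR2 is an endoplasmic reticulum protein needed to fold MUC2. Between ACD high and ACD medium FCGBP was the 1 gene of the list called, at -0.76 (SE 0.22). None was called there without ACD high replicate 2, where FCGBP had -0.5 (adjusted p = 0.00157 by DESeq2), again short of 1.5-fold. Summed over 9 goblet cell markers, which include MUC2 and TFF3 and of which 6 exceeded 1 CPM in each HT29 group, the level was 316 to 320 CPM in vehicle B, 288 to 293 CPM in ACD low, 259 to 261 CPM in ACD medium and 183 to 224 CPM in ACD high. This sum was also lower with wortmannin, at 279.1 to 293.2 CPM against 313.9 to 329.5 CPM in vehicle A. Most of the sum was AGR2, which averaged 181 CPM over the HT29 libraries. With wortmannin 0 of 6 tested goblet cell markers were called, with a median log2 fold change of -0.01. At ACD high 3 of 7 tested were called, all lower, with a median of -0.66, where 1.75% of all genes were called lower. Of 7 tested enterocyte markers 1 was called at ACD high, CEACAM5, which rose by 0.71 (SE 0.17), where 1.35% of all genes were called higher. Without ACD high replicate 2 CA2, named after its value was seen, was also called, but lower. The sum over 12 enterocyte markers was 439.5 to 471.1 CPM in vehicle B and 403.1 to 473.4 CPM in ACD high, which overlapped. The sum over 5 Paneth cell markers, nearly all of it LYZ, was 1701 to 1822 CPM in vehicle B and 1177 to 1672 CPM in ACD high. Of the 2 Paneth cell markers tested there 0 were called, and their median log2 fold change was -0.01. The part of these changes in the TFF3 result was not tested.

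Of 16 other mucins, 9 were tested at ACD high in HT29, where 3.1% of all genes were called, and 1 was called, MUC3A, a membrane mucin of the intestine, which fell by 0.73 (SE 0.14, adjusted p = 2.03e-05 by DESeq2). MUC3A and MUC12 belong to 1 gene cluster on chromosome 7 and share repeat sequence, so that their reads can be hard to assign. Without ACD high replicate 2 MUC3A (-0.62) was still called and MUC17, named after its value was seen, was called higher. Of 21 mucin O-glycosylation enzymes, which add and extend the sugar chains, 20 were tested and 1 was called, GALNT4, an enzyme that adds the first sugar, at -0.64 (SE 0.14), a share near that of all genes. None of the gastric surface cell genes (4 tested) or of the shedding proteases and galectins (7 tested) was called. At ACD medium none of these 4 lists had a gene called, and at ACD low no list had one.

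With wortmannin in HT29, where 1.97% of all genes were called higher, 1 of 6 tested other mucins was, MUC16, named after its value was seen, at 1.24 (SE 0.41) from a mean of 27.1 normalized counts, and no gene of the remaining 5 lists was called. In SW1783 at ACD high the list counts stand beside 17.7% of all genes called, 8.41% higher and 9.28% lower. ADAM17, a protease that sheds MUC1, rose by 1.24 (SE 0.05) and MMP14, a membrane protease, rose by 0.60 (SE 0.03), the 2 called of 6 tested. Of 17 tested O-glycosylation enzymes there, 4 rose and 5 fell, among them GALNT12, an enzyme that adds the first sugar, at 2.02 (SE 0.14) and GCNT1, which branches the chain, at -0.97 (SE 0.05). Of the goblet cell regulators 1 of 7 tested rose and 2 fell, among them CREB3L1 at -0.81 (SE 0.04), which thus fell in both lines. CREB3L1 averaged 222 ± 46.3 CPM in SW1783 and 178 ± 47.6 CPM in HT29 (SD, n = 18 libraries each). Of the products and folding genes 2 of 5 fell, including SYTL2 at -1.84 (SE 0.07). No tested gene of the other mucins (4) or gastric surface cell genes (3) was called. KLF4, a zinc finger factor of differentiated epithelia, rose by 2.76 (SE 0.12) in SW1783 at the high dose and by 1.39 (SE 0.13) at the medium dose. Its log2 fold change at the high dose, HT29 minus SW1783, was -2.30 (SE 0.17, adjusted p = 7.27e-39 by DESeq2).

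Likeness of pattern was described over the 12 HT29 libraries of batch B as Pearson's r of log2(CPM + 0.5) between a member and 9041 protein-coding genes with a mean of at least 10 CPM, for the 6 members that averaged 1 CPM or more in HT29. The libraries share treatments, depth and the length dependence of ACD high replicate 2 and vehicle B replicate 1. For TFF3 the 3 nearest genes were TMEM125, TEDC1 and RASL11A, with r of 0.970 to 0.955. MUC13 was nearest to TP53INP2, PLD1 and RNF19A, with r of 0.990 to 0.984. MUC5AC was nearest to ZBTB39, SERTAD2 and SH3BP2, with r of 0.976 to 0.966. MUC2 was nearest to PLEKHA6, RERE and ARHGEF26, with r of 0.989 to 0.986, MUC20 to NMT1, CCNF and SLC44A2, with r of 0.990 to 0.985, and MUC12 to CNOT4, TMEM131 and ZNF37A, with r of 0.955 to 0.918.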

How the data were processed

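RNA was sequenced in 36 libraries of SW1783 and HT29 cells. The authors aligned paired-end reads of a directional library to GRCh38 (the methods also write hg19) with STAR and estimated counts per gene with RSEM; the submitters' processing notes name STAR 2.7.3a, RSEM 1.3.3, Trim Galore 0.6.5 and FastQC 0.11.9. The deposited table holds RSEM expected counts, not normalized, of which 8.84% were not whole; they were rounded here. Strand settings were not given in the sources used here. Library totals ranged from 15941255 to 33866644, and 3 counts, the limit for a count of 0, came to 0.089 to 0.188 CPM.

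Treated libraries were set against same-batch vehicle libraries by the two-sided Wald test of DESeq2 1.42.0 (R 4.3.3), fitted to all genes of the 12 batch B or 6 batch A libraries of a line, with independent filtering at 0.1 and Benjamini-Hochberg adjustment over all genes. A call needed an adjusted p under 0.05 and a change over 1.5-fold (0.585 on the log2 scale). Interactions used both lines. SEs are those of the fit, 95% intervals are 1.96 SEs, and gene positions and lengths are those of GENCODE v44. All 9 members were reported, and up to 4 called genes per list, by size of change, where normalized counts averaged at least 50. Alternatives were edgeR 4.0.16, TMM size factors, no mitochondrial genes, a filter of 10 counts in 3 libraries, no fold threshold, only the groups compared, a replicate block, summed vehicles and each library left out; removal of a length trend was added after the data were seen. The fits were tested on simulated data, where the edgeR and replicate block fits made more false calls than the main fit, largely among sparse genes for the block; the pass condition was limited to better-covered, less variable genes after this was seen. The members and lists were chosen with earlier results of these data known.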

Additional observations from a re-analysis of the deposited data

Results flagged for a closer look

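MUC1 was flagged because its response to ACD high differed between the lines by a test of the difference itself: the log2 fold change was 2.00 higher in HT29 than in SW1783 (SE 0.50, adjusted p = 0.000486 in DESeq2's interaction test, with 3 libraries per group). All 3 high-dose libraries were below all 3 vehicle libraries in SW1783, and the groups overlapped in HT29. In HT29 MUC1 rested on 50 counts in vehicle B and 72 in ACD high. The interaction was called under all 19 alternatives, with adjusted p from 1.24e-06 to 0.0162. No group had enough libraries for a test of single outlying values.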

How the results depend on the processing

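Of 704 recomputed member fold changes, 685 kept their side of the thresholds and their direction or lay within 1 SE of a value smaller than its SE, and no fold change larger than its SE or past the adjusted p reversed. MUC1 in SW1783 at ACD high kept its call throughout, at -1.79 to -1.12 when 1 library was left out. In HT29 the count of members called at ACD high was 0 to 2 and at ACD medium 0 to 1 when 1 library was left out. Without the fold threshold the count was 2 at ACD high, 1 for ACD high against medium and 1 for wortmannin. With only the groups compared it was 0 at ACD high, where TFF3 had an adjusted p of 0.0797 by DESeq2, and 2 at ACD medium, where MUC5AC joined TFF3. With the length trend removed it was 2 at ACD high and 0 at ACD medium, where TFF3 had -0.49. With the replicate block it was 0 at ACD medium, where TFF3 had -0.65, and the block changed no other count of members called. Replicate numbers did not pair the libraries of the groups compared: 7 of 30 correlations of same-numbered deviations exceeded 0.1, over a range of -0.487 to 0.370, and the labels give a shared number only. For list counts, the other mucins were 2, the products and folding genes 4 and the enterocyte markers 2 without HT29 ACD high replicate 2 at ACD high. Of these 2 enterocyte markers 1 was called higher and 1 lower. The causes of these shifts were not tested. Low counts limit MUC1, TFF1 and TFF2 in HT29 and all members but MUC1 in SW1783.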
